A study of Mus musculus with 19 samples.

Results

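The comparison described here is that of diabetic DBA/2J mice given rosiglitazone with diabetic DBA/2J mice given vehicle, measured in sciatic nerve. Its members are the 5 arrays titled as diabetic with rosiglitazone, whose treatment label names STZ and Rosiglitazone, and the 5 arrays titled as diabetic with vehicle, whose treatment label names STZ, 10 of the 19 arrays of the series. All 10 mice were therefore made diabetic with streptozotocin (STZ), a toxin that destroys insulin-producing beta cells, and the groups differed by the drug. The other 9 arrays were of mice not given STZ, 4 with vehicle (treatment label None) and 5 with rosiglitazone (treatment label Rosiglitazone), and serve here as control mice. Arrays are called DV (diabetic, vehicle), DR (diabetic, rosiglitazone), CV and CR (the same in control mice), each with the number in its title. Age, dose and length of treatment are not given in the sources used here. The series title names diabetic neuropathy as the condition that the treatment addresses.

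Rosiglitazone is a thiazolidinedione that activates PPAR gamma (gene Pparg), a nuclear receptor. It binds DNA as a heterodimer with retinoid X receptors such as Rxra, at paired copies of a hexamer in direct repeat, and is best known for driving fat cell genes of lipid uptake and storage. The sciatic nerve holds axons and Schwann cells, which make the myelin sheath, with fibroblasts, perineurial cells, vessels, macrophages and fat around the fascicles. The cell bodies of its sensory axons lie in dorsal root ganglia. All samples are bulk tissue, so fewer cells of a type and less RNA per cell cannot be told apart.

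RNA integrity and tissue content differed among the 10 arrays. The Gapdh 3' minus 5' difference compares control probe sets at both ends of the Gapdh transcript on the log2 scale, and grows when transcripts are broken or copied short. It was 3.71 and 4.38 on DV706 and DV707 and 1.09, 1.24 and 1.14 on the other DV arrays. In the rosiglitazone group it was 1.75 on DR716 and between 1.00 and 1.15 on the other 4, and in control mice it ran from 1.11 to 1.37. The means were 2.31 ± 1.60 (SD, n = 5) in DV and 1.20 ± 0.31 (SD, n = 5) in DR, a difference of -1.11 (two-sided exact permutation p = 0.206 over 252 splits, where the smallest possible p is 0.00794). The difference for beta-actin was -0.96 (two-sided exact permutation p = 0.111), with DV706 at 2.73 and DR716 at 1.70. Arrays DV706 and DV707 thus lay apart within the vehicle group, and results are given with and without them. The part of RNA integrity in the results was not tested beyond this.

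Marker genes of ganglia, fat and muscle also spread widely. The level of a list is the mean of its genes on an array, after each gene was centred on its mean over the 19 arrays. For 25 sensory neuron markers it was -2.41, -3.02 and -2.80 on DV706, DV707 and DV709 and -3.07 on DR716, and between 0.03 and 1.80 on the other 6 diabetic arrays. The sensory neuron transcription factor Isl1 and the neuropeptide gene Calcb were at 3.83 and 4.87 on DR716 and at 11.35 and 12.30 on DV708. The level of 16 adipocyte markers was -3.93 on DV709 and 1.62 on DR716, and between -0.70 and 0.61 on the rest. That of 32 skeletal muscle markers was between 1.68 and 2.85 on DV706, DV708, DR716 and DR720 and between -1.74 and -0.28 on the other 6. Mbp, myelin basic protein, a marker of myelinating Schwann cells, was at 14.03 to 14.44 on all 10 arrays. The level of 21 myelin and myelinating Schwann cell genes spread more. It was -0.66 on DV707 and -0.65 on DR716, and between -0.09 and 0.29 on the rest.

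**Figure D1:**
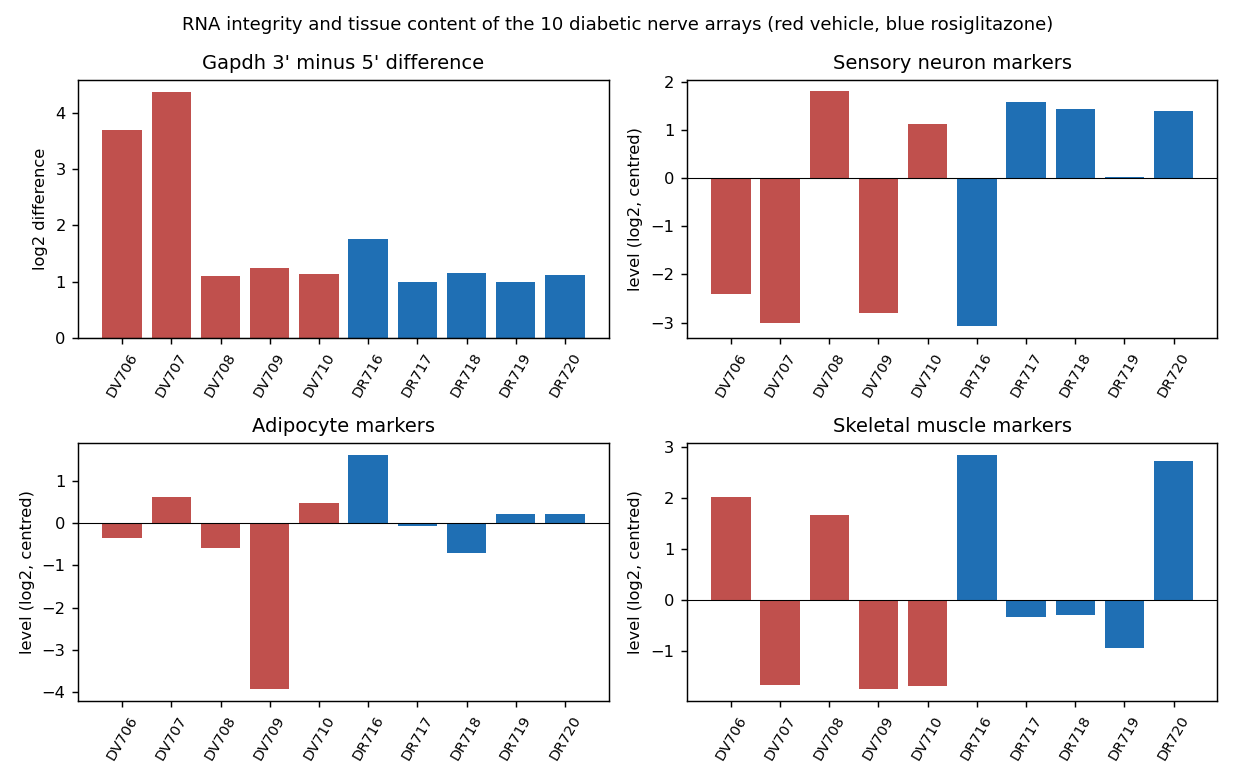
The 4 panels plot, for each of the 10 diabetic arrays, the Gapdh 3' minus 5' difference (log2) and the levels of sensory neuron, adipocyte and skeletal muscle markers (log2, centred over 19 arrays), with vehicle in red and rosiglitazone in blue. DV706 and DV707 stand at 3.71 and 4.38 in the first panel, and DV709 stands at -3.93 in the adipocyte panel.

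With limma, 0 of 13460 genes tested (0%) differed between both groups at a Benjamini-Hochberg adjusted p under 0.05. The smallest adjusted p was 0.497 and was shared by 2102 genes. At an unadjusted p under 0.05 stood 1305 genes (9.70%, where chance alone gives 5%), 556 higher (4.13%) and 749 lower (5.56%) with rosiglitazone. This count was 439 with only the diabetic arrays fitted and 341 with the Gapdh difference as covariate, both a smaller share than 5%. The median log2 change over all genes was -0.02, the median absolute change 0.20, and 6355 genes (47.2%) had a change above 0. In 85 genes (0.632%) the 5 DR arrays did not overlap with the 5 DV arrays, 33 of them higher (0.245%) and 52 lower (0.386%). With 5 arrays against 5, chance alone separates the groups at a rate of 0.00794, the smallest possible permutation p given above. The share without overlap was thus no larger than chance gives, and a lack of overlap is used to describe, not to call. No single gene below therefore passed the adjusted test. Genes are given with the standard error (SE) of the change, and an unadjusted p under 0.05 is used to count, not to call. The SE rests on a spread pooled over all 4 groups of the series. Where the DV arrays spread more than the other groups, it understates the spread of both groups compared. For Etfb, a gene described below, the SD was 0.87 in DV, 0.19 in DR, 0.06 in CV and 0.25 in CR.

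These counts turned on single arrays. Leaving out DV706 gave 447 genes at an unadjusted limma p under 0.05, and leaving out DV707 gave 618. Leaving out DV710 gave 2999, DR716 gave 2686 and DV708 gave 2175, while DR717, DR718 and DR719 gave 769, 793 and 807. The count without overlap was 419, 361, 192 and 154 when DR716, DV710, DV708 or DV709 was left out, and with 4 arrays against 5 fewer values can overlap. With both DV706 and DV707 left out, 258 genes (1.92%) were below that p, 84 higher (0.624%) and 174 lower (1.29%). Of the 1305 genes, 113 were among these 258, 1301 kept their sign, and 1247 had a smaller change. The 1305 were picked on a fit that holds the remaining arrays too, so kept signs and smaller changes come partly from that choice. With DV706, DV707 and DR716 left out, the count was 511 (3.80%), 161 higher (1.20%) and 350 lower (2.60%). Without the 5 neuron-poor arrays, which are DV706, DV707, DV709, DR716 and, of control mice, CR715, it was 569 (4.23%), 312 higher (2.32%) and 257 lower (1.91%).

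**Figure D2:**
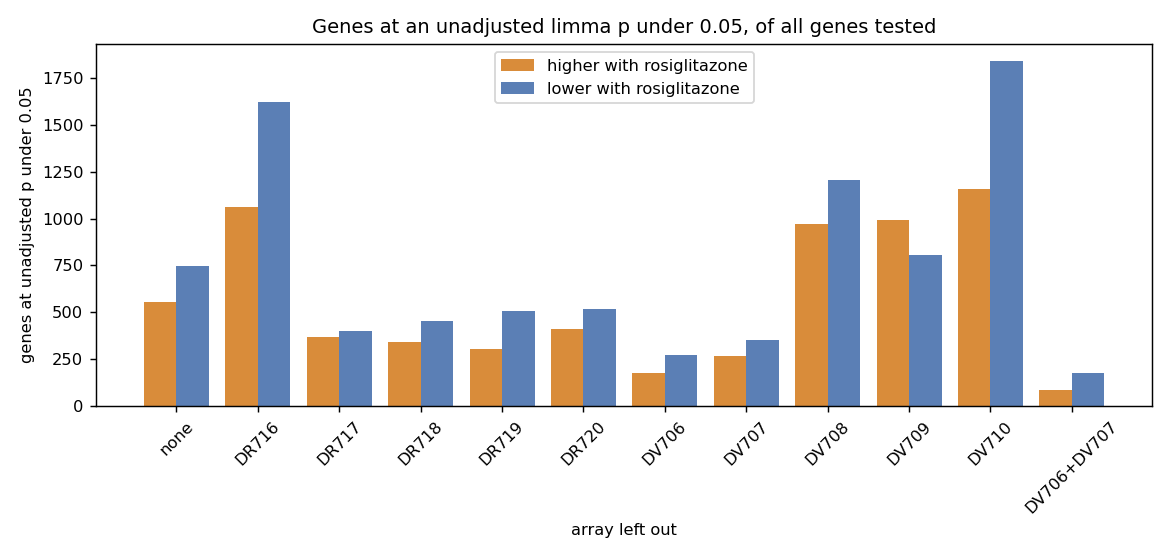
Bars give the number of genes, of 13460 tested, at an unadjusted limma p under 0.05 that were higher (orange) or lower (blue) with rosiglitazone, by the array left out. The counts are 556 and 749 with no array left out and 84 and 174 without DV706 and DV707.

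Of the genes whose groups did not overlap, Rbp7 had the largest positive change. It encodes a retinol-binding protein of fat and endothelium that has been described as a PPAR gamma target. Its log2 intensity was 11.40, 11.82, 10.92, 11.15 and 11.73 on the DV arrays in the order of their numbers, and 12.44, 12.19, 12.08, 12.69 and 12.87 on the DR arrays. Every DR array lay above every DV array. The log2 change was 1.05 (SE 0.40, limma adjusted p = 0.497), a ratio of 2.07. It was 1.19 without DV706 and DV707, and ran from 0.93 to 1.15 over single arrays left out. Leaving out the neuron-poor arrays gave 1.13. Control mice showed a change of 1.50 (SE 0.42) with an unadjusted p under 0.05, and the changes in diabetic and control mice differed by -0.46 (SE 0.58, limma adjusted p = 0.817).

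Promoter windows were the 250 bases before the annotated start in RefSeq on build GRCm38.p6. They were searched for a loose form of the direct repeat that PPAR and retinoid X receptor pairs bind. The form searched was a pair of half-sites AGGNNA, with T or G as the first N and C or G as the second, with 1 base between them, on either strand. Of 32851 windows 124 (0.377%) held a match, and 11 (0.0335%) held a pair of exact AGGTCA half-sites. Of the 10802 tested genes with a window 45 (0.417%) held a match. It was in 4 of 462 genes higher at an unadjusted p under 0.05 (0.866%) and in 5 of 626 lower (0.799%). Of the 112 genes covered by the naming rule or added later, 89 had a window. Among them Echs1 (enoyl-CoA hydratase) and Etfb (electron transfer flavoprotein beta), both of fatty acid oxidation, held a match, and so did the adhesion receptor gene Ceacam1. The Rbp7 window held 3 single half-sites and no repeat of this form. The windows are shown 5' to 3' on the gene's strand with the match in capitals. They are those of the named genes with a match and of Rbp7, which had the largest positive change among genes without overlap. No match shown holds an exact AGGTCA half-site. Rbp7 lies at chr4:149454969-149455218 (minus strand), Echs1 at chr7:140116422-140116671 (minus), Etfb at chr7:43443822-43444071 (plus) and Ceacam1 at chr7:25477626-25477875 (minus). A match of letters is not evidence of binding.
Rbp7: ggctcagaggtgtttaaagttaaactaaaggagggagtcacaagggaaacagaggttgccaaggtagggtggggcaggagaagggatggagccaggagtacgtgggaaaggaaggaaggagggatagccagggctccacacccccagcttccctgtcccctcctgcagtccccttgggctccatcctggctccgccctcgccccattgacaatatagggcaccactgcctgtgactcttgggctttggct
Echs1: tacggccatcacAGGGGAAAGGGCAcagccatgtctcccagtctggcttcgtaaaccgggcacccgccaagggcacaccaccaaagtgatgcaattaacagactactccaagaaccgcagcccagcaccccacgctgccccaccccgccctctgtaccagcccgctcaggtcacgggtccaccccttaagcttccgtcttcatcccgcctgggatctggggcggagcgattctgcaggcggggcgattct
Etfb: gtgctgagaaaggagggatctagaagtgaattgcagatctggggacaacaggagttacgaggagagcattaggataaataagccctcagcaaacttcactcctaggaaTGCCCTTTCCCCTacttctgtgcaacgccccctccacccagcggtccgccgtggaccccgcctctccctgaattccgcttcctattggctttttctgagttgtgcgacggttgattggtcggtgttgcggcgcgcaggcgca
Ceacam1: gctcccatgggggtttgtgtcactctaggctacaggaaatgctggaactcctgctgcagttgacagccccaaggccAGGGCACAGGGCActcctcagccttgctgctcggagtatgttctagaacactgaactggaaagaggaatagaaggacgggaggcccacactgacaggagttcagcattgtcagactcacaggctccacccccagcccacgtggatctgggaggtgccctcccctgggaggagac

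Both oxidation enzymes with a match lay higher, and mainly through DV706 and DV707. Etfb was at 11.46 and 11.47 on those arrays, at 12.92, 13.10 and 13.14 on the other DV arrays, and at 12.81 to 13.30 on the DR arrays. Its change was 0.72 (SE 0.29), and 0.09 without DV706 and DV707. Echs1 differed by 0.75 (SE 0.28), and by 0.34 without both. Ceacam1 was at 9.71 to 9.88 on the DV arrays and 9.10 to 9.52 on the DR arrays, with no overlap. Its change was -0.46 (SE 0.15) with and without both arrays, but 5 of its 8 probe sets had the other sign.

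**Figure D3:**
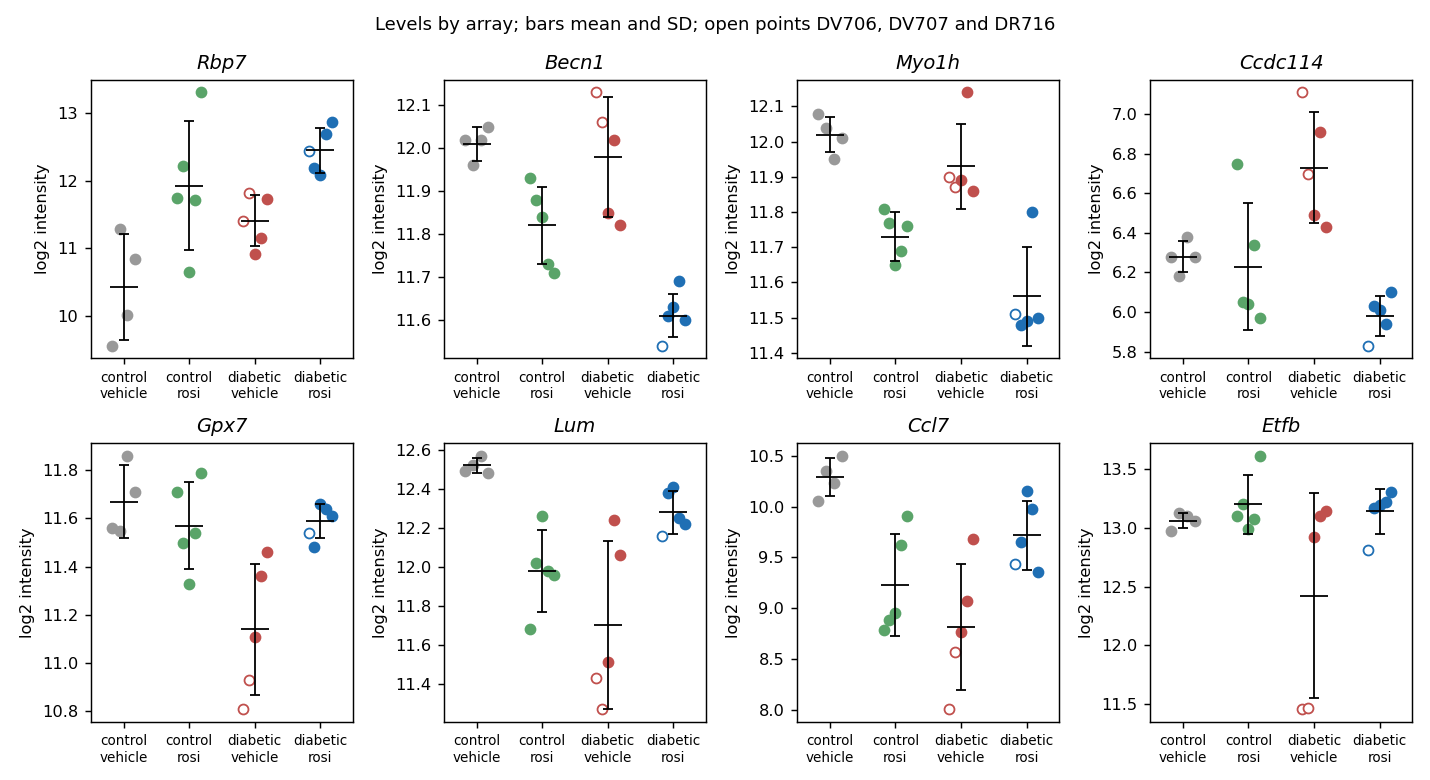
Each panel plots the log2 intensity of a gene on the 19 arrays by group (grey control vehicle, green control rosiglitazone, red diabetic vehicle, blue diabetic rosiglitazone), with the mean and SD of each group. Open points are DV706, DV707 and DR716, the arrays with a Gapdh difference of 1.75 or more, and Rbp7, Becn1, Myo1h, Ccdc114 and Gpx7 show no overlap between both diabetic groups.

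Among 20 genes for PPAR receptors and coactivators, 9 lay higher, and 1 lay lower at an unadjusted p under 0.05. Their median was -0.04, against -0.02 over all genes. Pparg, the receptor of the drug, was at 8.50, 10.26, 7.66, 6.86 and 8.21 on the DV arrays and at 10.63 on DR716 and 6.88 to 7.80 on the other DR arrays. The groups overlapped, and the change was -0.16 (SE 0.84). It turned to 0.56 without DV706 and DV707. Rxra, its partner, differed by 0.36 (SE 0.18), by 0.22 without DV706 and by 0.11 without both, and Ppard, the PPAR delta gene, by -0.58 (SE 0.26), or -0.28 without both arrays.

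Of 45 tested PPAR target genes 30 lay higher, with a median of 0.11. At an unadjusted p under 0.05 stood 3 (6.67%, against 9.70% of all genes), 1 higher and 2 lower. The median was 0.24 without DV706 and DV707, but 0.10 without DV706, DV707 and DR716 and 0.05 without the neuron-poor arrays. Over single arrays left out it ran from 0.03 without DR716 to 0.19 without DV707. Adipoq, the fat hormone adiponectin, was at 5.48 on DV709, at 11.77 to 12.82 on the other DV arrays and at 11.50 to 13.28 on the DR arrays. Its change of 1.52 (SE 1.17) was 0.16 without DV709. Cidec, a lipid droplet protein of fat cells, was at 4.41 on DV709, 9.12 to 11.06 on the other DV arrays and 10.18 to 12.60 on the DR arrays, a change of 2.21 (SE 1.18) that was 1.06 without DV709. Fabp4, a fatty acid carrier of adipocytes, differed by 0.96 (SE 0.68), Cd36, a fatty acid transporter, by 0.62 (SE 0.63), and Lpl, lipoprotein lipase, by 0.39 (SE 0.61). Without DV709 these changes were 0.13, 0.21 and -0.28.

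All 16 adipocyte markers tested and all 32 skeletal muscle markers lay higher, none at an unadjusted p under 0.05 by limma. The adipocyte median was 0.97 with all arrays, 0.18 without DV709, 1.67 without DV706 and DV707, and -0.04 without the neuron-poor arrays, of which DV709 is 1. The muscle median was 0.87, from 0.45 without DV709 to 1.44 without DV706. Acta1, skeletal muscle actin, was at 12.61, 4.67, 11.53, 4.81 and 4.78 on the DV arrays and at 12.63, 9.20, 8.97, 8.14 and 13.27 on the DR arrays, so that the muscle content spread within both groups. Of 12 brown fat and thermogenic genes 6 lay higher, with a median of 0.06. Fabp3, a fatty acid carrier of muscle and heart that is in this and in the PPAR target list, differed by 1.98 (SE 0.67). It was at 8.71, 7.67 and 9.40 on DV706, DV707 and DV709, at 12.57 and 11.50 on the other DV arrays, and at 10.97 to 12.62 on the DR arrays, and the change was -0.25 without the neuron-poor arrays.

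Fatty acid oxidation showed members on both sides. Of 31 tested, 19 lay higher, with a median of 0.06 both with and without DV706 and DV707, and 2 higher (Echs1 and Etfb) and 1 lower had an unadjusted p under 0.05 (9.68%, against 9.70% of all genes). Cpt1a, which loads fatty acids for import into mitochondria and is a known PPAR target, was at 11.16, 11.13, 10.41, 10.42 and 9.93 on the DV arrays and at 10.42, 9.81, 9.75, 9.84 and 9.60 on the DR arrays. The change was -0.72 (SE 0.21), with the same sign in all 3 of its probe sets, and -0.37 without DV706 and DV707. Pdk4, which inhibits pyruvate dehydrogenase, differed by -0.30 (SE 0.17), and Angptl4, a lipase inhibitor induced by PPARs, by -0.59 (SE 0.40).

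Of 26 fatty acid and triglyceride synthesis genes 14 lay higher, with a median of 0.03. Both members at an unadjusted p under 0.05 (7.69%, against 9.70% of all genes) were lower. Agpat3, an acyltransferase of phospholipid synthesis, was at 10.86 to 11.29 on the DV arrays and at 10.21 to 10.85 on the DR arrays, with no overlap, a change of -0.39 (SE 0.12) and -0.32 without DV706 and DV707. Me1, malic enzyme, which supplies NADPH, differed by -0.43 (SE 0.17), and by -0.19 without both. Cholesterol synthesis genes had a median of 0.10 with 15 of 20 higher, and of -0.14 with 5 of 20 higher without both arrays. Ebp, a sterol isomerase, differed by 0.46 (SE 0.17), with 9.61 and 10.10 on DV706 and DV707 and 10.51 to 10.93 on the other 8 arrays.

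Cholesterol and lipoprotein export genes had a median of 0.13, with 7 of 11 higher. Apoe, apolipoprotein E, which nerve macrophages and Schwann cells secrete, was at 11.48, 12.13, 13.79, 13.03 and 13.79 on the DV arrays and at 13.42 to 13.90 on the DR arrays. Its change of 0.86 (SE 0.33) was 0.17 without DV706 and DV707 and -0.02 without the neuron-poor arrays. Pltp, a phospholipid transfer protein, differed by -0.28 (SE 0.12), and by -0.10 without both.

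Mitochondrial genes made up the list with the highest share at an unadjusted p under 0.05. Of 74 mitochondrial ribosomal protein genes, which build the ribosome that translates the mitochondrial genome, 59 lay higher, and 26 (35.1%, against 9.70% of all genes) had an unadjusted p under 0.05, each of them higher. The median was 0.21. Their level was -0.35 and -0.34 on DV706 and DV707 and between -0.01 and 0.14 on the other 8 arrays, and without both arrays the median was 0.08, with 59 of 74 higher and 0 at an unadjusted limma p under 0.05. Mrps17, of the small subunit, was at 10.61, 10.91, 11.23, 11.28 and 11.46 on the DV arrays and 11.18, 11.56, 11.59, 11.72 and 11.66 on the DR arrays, a change of 0.45 (SE 0.15). Mrpl14, of the large subunit, differed by 0.83 (SE 0.30). Without both arrays the changes were 0.22 and 0.36.

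Of 72 oxidative phosphorylation genes, which encode the respiratory chain and ATP synthase, 53 lay higher with a median of 0.12. An unadjusted p under 0.05 was reached by 14 higher and 1 lower (20.8%, against 9.70% of all genes), and without DV706 and DV707 by 1. The level was -0.25 and -0.30 on DV706 and DV707 and between -0.05 and 0.10 on the others, and the median without both was 0.02. Ndufs4, a complex I subunit, was at 11.38, 11.40, 11.76, 11.54 and 11.79 on the DV arrays and at 11.81 to 11.98 on the DR arrays, with no overlap. Its change was 0.33 (SE 0.12), 0.21 without both arrays, and 0.26 in control mice, but 2 of its 4 probe sets had the other sign. Ndufb3, of the same complex, differed by 0.34 (SE 0.13), and by 0.11 without both.

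Smim20, Timm50, Mcee and Aven were among the 33 higher genes whose groups did not overlap. Smim20, an assembly factor of cytochrome c oxidase, was at 9.80, 9.93, 10.44, 10.55 and 10.72 on the DV arrays and at 10.80, 10.90, 10.85, 11.08 and 10.82 on the DR arrays. Its change was 0.60 (SE 0.16), and 0.32 without DV706 and DV707. Timm50, of the inner membrane import machinery, differed by 0.54 (SE 0.22), and Mcee, an enzyme of propionate breakdown, by 0.40 (SE 0.13). Without both arrays these were 0.19 and 0.15. Only 1 of 3 Timm50 probe sets was higher. Aven, a cell death inhibitor that is no mitochondrial gene, differed by 0.89 (SE 0.26), and by 0.51 without both.

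Proteasome and chaperone genes showed a like dependence. Of 31 proteasome genes 24 lay higher with a median of 0.17. An unadjusted p under 0.05 was reached by 7 higher and 2 lower (29.0%, against 9.70% of all genes). Without DV706 and DV707 the median was 0.02 with 0 at that limma p. Psmb2, a core subunit, was at 9.43 and 9.79 on DV706 and DV707, at 11.07, 11.38 and 12.04 on the other DV arrays and at 10.96 to 12.16 on the DR arrays. Its change was 1.05 (SE 0.41), and 0.29 without both. Psmd1, of the regulatory cap, differed by -0.39 (SE 0.13). Of 33 chaperone genes 23 lay higher with a median of 0.08, and of 0.00 without both. The 2 members at an unadjusted p under 0.05 (6.06%, against 9.70% of all genes) were Hsp90b1 and Hspe1. Hsp90b1, the chaperone GRP94 of the endoplasmic reticulum, differed by 0.45 (SE 0.19), and Hspe1, of the mitochondrial chaperonin, by 0.36 (SE 0.14). Without both arrays they differed by 0.15 and 0.16, and 0 members had an unadjusted limma p under 0.05.

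Of 41 antioxidant and oxidative stress genes 30 lay higher, and the median was 0.16 (0.07 without DV706 and DV707). All 5 at an unadjusted p under 0.05 (12.2%, against 9.70% of all genes) were higher, and without both arrays there was 1. Gpx7, a peroxidase of the endoplasmic reticulum, was at 10.81, 10.93, 11.11, 11.36 and 11.46 on the DV arrays and 11.54, 11.48, 11.66, 11.64 and 11.61 on the DR arrays. The groups did not overlap, with a change of 0.45 (SE 0.12, limma adjusted p = 0.497), and 0.28 without both arrays. In control mice Gpx7 differed by -0.10, and the changes in diabetic and control mice differed by 0.55 (SE 0.18, limma adjusted p = 0.748). Gpx8, a related enzyme, differed by 0.32 (SE 0.13), and by 0.08 without both. Hmox2, the constitutive heme oxygenase, differed by 0.65 (SE 0.23), and by 0.23. The stress-induced heme oxygenase Hmox1 differed by 0.03 (SE 0.53), Sod2, mitochondrial superoxide dismutase, by 0.21 (SE 0.17), the catalase gene Cat by -0.15 (SE 0.10) and Txnip, a thioredoxin inhibitor induced by glucose, by 0.16 (SE 0.17), each at an unadjusted limma p above 0.05.

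**Figure D4:**
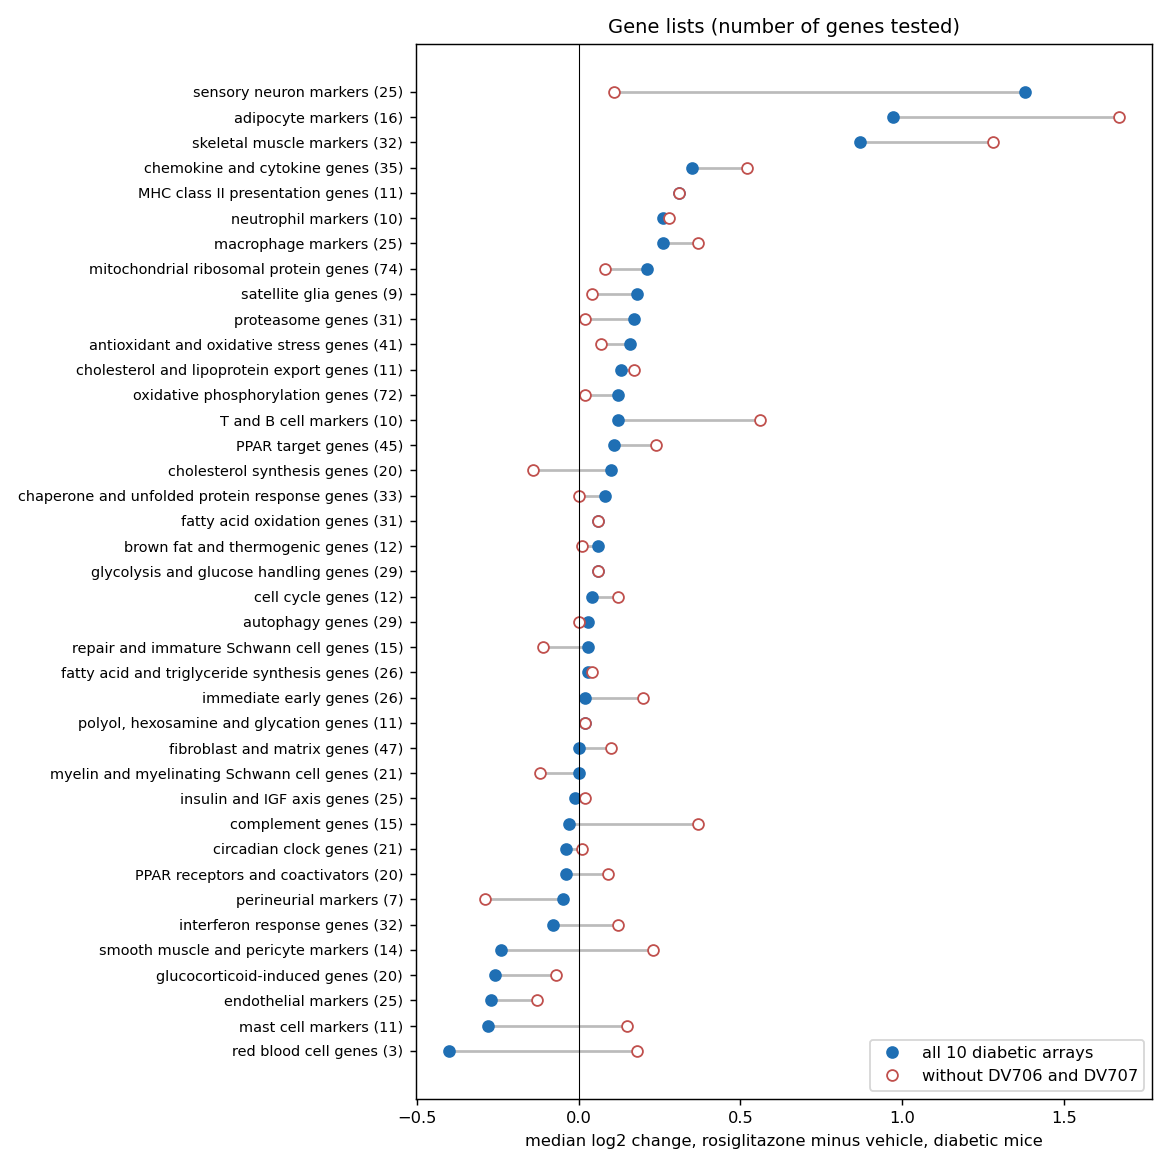
Points give the median log2 change (rosiglitazone minus vehicle, diabetic mice) of each of 39 gene lists, with the number of genes tested in brackets, over all 10 arrays (filled) and without DV706 and DV707 (open). The mitochondrial ribosomal median moves from 0.21 to 0.08, the sensory neuron median from 1.38 to 0.11, and the adipocyte median from 0.97 to 1.67.

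The 5 genes with the smallest p were all lower with rosiglitazone. Ccdc114, which encodes a dynein docking protein of motile cilia, had the smallest, with a change of -0.74 (SE 0.15, limma adjusted p = 0.497). It was at 7.11, 6.70, 6.49, 6.91 and 6.43 on the DV arrays and at 5.83, 6.03, 6.01, 5.94 and 6.10 on the DR arrays, with a change of -0.63 without DV706 and DV707. These levels are close above the low-intensity filter of 5.54. Becn1, whose product Beclin 1 starts autophagosome formation, was at 12.13, 12.06, 11.85, 12.02 and 11.82 on the DV arrays and 11.54, 11.61, 11.63, 11.69 and 11.60 on the DR arrays. No DR array reached a DV array, and the change was -0.36 (SE 0.08, limma adjusted p = 0.497), -0.28 without both arrays and -0.19 (SE 0.08) in control mice. Its change was negative in 4 of 5 probe sets, but those at -0.25 and -0.48 had mean levels of 5.30 and 4.58, under that filter. The next strongest probe set had -0.00 in diabetic and -0.37 in control mice.

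Myo1h, an unconventional myosin, was at 11.90, 11.87, 11.89, 12.14 and 11.86 on the DV arrays and 11.51, 11.48, 11.49, 11.80 and 11.50 on the DR arrays. Its change of -0.37 (SE 0.08) was -0.40 without DV706 and DV707 and -0.29 in control mice, where CV and CR arrays also did not overlap. Aqp11, an intracellular aquaporin, was at 7.96, 7.17, 6.97, 7.26 and 6.43 on the DV arrays and 5.69, 6.08, 6.16, 6.30 and 6.57 on the DR arrays, a ratio of 0.50 with DR720 above DV710. Its log2 change was -0.73 without both arrays and 0.31 in control mice, and the changes in diabetic and control mice differed by -1.30 (SE 0.34, limma adjusted p = 0.748). Mier2, a transcriptional repressor, differed by -0.48 (SE 0.11) in diabetic and by -0.29 in control mice.

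The other autophagy genes did not follow Becn1. Of 29 tested 16 lay higher, and the median was 0.03. With Becn1, 10.3% of the list had an unadjusted p under 0.05, against 9.70% of all genes. Besides Becn1 these were 2 genes, both higher. One of them, Gabarap, of the family that lipidates onto autophagosome membranes, was at 12.49 and 12.47 on DV706 and DV707 and at 13.22 to 13.51 on the other 8 arrays, so that its change of 0.37 was 0.00 without them.

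Dach1, Exoc6, Frmd4a and Sema7a were also among the 52 lower genes whose groups did not overlap. Dach1, a transcriptional cofactor, differed by -0.83 (SE 0.25), and Exoc6, an exocyst subunit, by -0.54 (SE 0.14), with the same sign in all 4 Exoc6 probe sets. Without DV706 and DV707 these were -0.44 and -0.34. Frmd4a, a scaffold of cell polarity, was at 11.68, 11.22, 11.25, 11.52 and 11.27 on the DV arrays and 10.83, 10.90, 11.06, 10.96 and 10.64 on the DR arrays. The change was -0.51 (SE 0.14), -0.47 without both, and -0.44 in control mice. Sema7a, a membrane-bound semaphorin, was at 8.45 on DR716, 9.52 to 9.85 on the other DR arrays and 9.87 to 10.68 on the DV arrays, a change of -0.72 (SE 0.31).

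Immune genes included chemokines on the higher side. Of 35 chemokine and cytokine genes 22 lay higher, with a median of 0.35 that was 0.52 without DV706 and DV707 and -0.12 without DV709. An unadjusted p under 0.05 was reached by 6 higher and 1 lower (20.0%, against 9.70% of all genes), and by 4 higher without DV706 and DV707. Ccl7, which draws monocytes, was at 8.01, 8.57, 8.77, 9.07 and 9.68 on the DV arrays and at 9.44, 9.65, 10.15, 9.98 and 9.36 on the DR arrays. Only DV710 reached the DR range, and the change was 0.90 (SE 0.28), and 0.54 without both. Ccl2, the main monocyte chemoattractant, differed by 0.85 (SE 0.34), and by 0.52. Ccl3 and Ccl4, chemokines of activated macrophages, differed by 0.91 (SE 0.32) and 0.85 (SE 0.23), and by 0.53 and 0.61 without both arrays. The DV mean of Ccl4, 5.53, lay under the low-intensity filter of 5.54. The lower member was Nfkbia, the NF-kappa-B inhibitor, at -0.27 (SE 0.11), with that sign in 3 of its 5 probe sets.

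Of 25 macrophage markers 19 lay higher, the median was 0.26, and all 4 at an unadjusted p under 0.05 (16%, against 9.70% of all genes) were higher. The list's level was -0.57, 0.36, -0.18, -0.83 and 0.37 on the DV arrays and 0.45, -0.17, -0.06, 0.51 and 0.03 on the DR arrays, so the groups overlapped. The median was 0.37 without DV706 and DV707, 0.13 without DV709, 0.41 without DV710 and -0.06 without the neuron-poor arrays. Trem2, a lipid-sensing receptor of macrophages, was at 6.26, 7.10, 8.45, 8.59 and 8.60 on the DV arrays and 8.51 to 9.65 on the DR arrays, a change of 1.15 (SE 0.36) and 0.40 without both. Its other probe set, near background, had the opposite sign. C1qa, of the first complement component, differed by 1.19 (SE 0.42), and by 0.35, and Fcgr1, a high-affinity Fc receptor, by 0.79 (SE 0.31), and by 0.80. Cd68, a lysosomal macrophage marker, differed by 0.62 (SE 0.28), and by 0.65.

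Of 11 MHC class II presentation genes 10 lay higher, with a median of 0.31 with and without DV706 and DV707, 0.13 without DV709 and 0.47 without DV710. H2-Aa, a class II chain, was at 11.43, 12.07, 12.48, 11.99 and 13.59 on the DV arrays and 13.00, 13.11, 13.09, 13.64 and 13.14 on the DR arrays. The change was 0.88 (SE 0.28), and 0.51 without both, with that sign in 2 of its 4 probe sets. Of 32 interferon response genes 20 lay lower, with a median of -0.08, while without both arrays the median was 0.12 with 22 of 32 higher. Igtp, an interferon-inducible GTPase, differed by -0.81 (SE 0.30) and by -0.27 without both. Rsad2, the antiviral protein viperin, differed by -0.55 (SE 0.23), while Psmb9, an immunoproteasome subunit, lay at 0.72 (SE 0.26). Complement genes had a median of -0.03, with 7 of 15 higher, and of 0.29 without DR718.

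Of 25 endothelial markers 23 lay lower, the median was -0.27, and all 5 at an unadjusted p under 0.05 (20.0%, against 9.70% of all genes) were lower. The level was 1.05 and 0.57 on DV706 and DV707, -0.28, 0.32 and 0.15 on the other DV arrays and -0.50 to 0.40 on the DR arrays. Without both arrays the median was -0.13, with 7 of 25 higher and 0 at an unadjusted limma p under 0.05. It was 0.07 without the neuron-poor arrays and ran from -0.51 without DV708 to -0.14 without DV706. Vwf, von Willebrand factor, was at 13.12 and 12.87 on DV706 and DV707, at 11.24 to 11.57 on the other DV arrays and at 10.09 to 12.11 on the DR arrays. Erg, an endothelial transcription factor, differed by -1.16 (SE 0.41), and by -0.43 without both. Mmrn2, a vascular matrix protein, and Ptprb, a phosphatase of vessel walls, differed by -0.77 (SE 0.34) and -0.62 (SE 0.27), and by -0.18 and -0.16.

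Fibroblast and matrix genes were on both sides, with 24 of 47 higher and a median of 0.00. At an unadjusted p under 0.05 stood 2 (4.26%, against 9.70% of all genes), both higher. Lum, the collagen-binding proteoglycan lumican, was at 11.43, 11.27, 11.51, 12.24 and 12.06 on the DV arrays and at 12.16, 12.38, 12.41, 12.25 and 12.22 on the DR arrays. DV709 alone reached the DR range. The change was 0.58 (SE 0.16), and 0.35 without DV706 and DV707. Timp1, an inhibitor of matrix metalloproteases, differed by 0.73 (SE 0.25), and by 0.52.

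Schwann cell genes showed no member at an unadjusted p under 0.05 by limma. Of 21 myelin and myelinating Schwann cell genes 10 lay higher, with a median of -0.00, and without DV706 and DV707 it was -0.12 with 2 of 21 higher. Mbp differed by -0.12 (SE 0.09) and Pmp22, a myelin membrane protein, by -0.08 (SE 0.09). Of 15 repair and immature Schwann cell genes 10 lay higher, with a median of 0.03. Ngfr, the low-affinity neurotrophin receptor of such cells, was at 8.69 to 11.23 on the DV arrays and 9.43 to 10.89 on the DR arrays, and differed by 0.39 (SE 0.54), or -0.11 without both arrays.

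All 25 sensory neuron markers tested lay higher, the median was 1.38, and none had an unadjusted p under 0.05. With 3 of 5 DV arrays and 1 of 5 DR arrays low in these transcripts, the median was 0.79 without DV707, 2.34 without DV708, 0.11 without DV706 and DV707 and -0.30 without all 5 low arrays of the series. Neuron cell bodies are not part of the nerve trunk, and how these samples came to differ was not tested.

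Circadian clock genes had a median of -0.04 (8 of 21 higher), and the output gene Dbp had a difference of -0.16 (SE 0.44). Of 20 glucocorticoid-induced genes 16 lay lower, and the median was -0.26, or -0.07 without DV706 and DV707. Fkbp5, a co-chaperone induced by glucocorticoids, was at 10.03 to 11.32 on the DV arrays and 10.08 to 10.95 on the DR arrays (-0.31, SE 0.30). Insulin and IGF axis genes had a median of -0.01 (12 of 25 higher), and Akt1, a kinase downstream of the insulin receptor, differed by -0.36 (SE 0.16) and by -0.15 without both arrays. Of 29 glycolysis genes 20 lay higher, and their median was 0.06.

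Control mice given rosiglitazone share no arrays with the diabetic comparison. There 0 of 13460 genes (0%) passed an adjusted p of 0.05 by limma, and 381 (2.83%) had an unadjusted p under 0.05 (204 without CV705 and 237 without CR711). The test of the difference between both rosiglitazone effects gave 0 genes (0%) at an adjusted p under 0.05 and 642 (4.77%) at an unadjusted p under 0.05, with a smallest adjusted p of 0.748. The latter count was 1847 without DV710, 1428 without DR716 and 1046 without DV709, and between 332 and 424 without any 1 of DV706, CR711, CV705, CV704, DR718, DR717 and DR719. An unadjusted p under 0.05 in both comparisons was reached by 47 genes, 3.60% of those in diabetic and 12.3% of those in control mice, of which 40 had the same sign. Across the 13460 genes, which are not independent replicates, the correlation of both effects was -0.07.

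Groups did not overlap in 464 genes (3.45%) in control mice, and in both comparisons, with the same sign, in 7 genes. In control mice 4 arrays stand against 5, so chance alone leaves more genes without overlap there. The 3.45% cannot be set directly against the 0.632% in diabetic mice. Higher in both were Tmem205, a membrane protein, and Coa8, an assembly factor of cytochrome c oxidase, with 0.28 and 0.27 in diabetic and 0.27 and 0.25 in control mice. Lower in both were Becn1, Myo1h, Frmd4a, Ccdc47 (a translocon-associated protein of the endoplasmic reticulum) and Fyttd1 (an mRNA export factor). Ccdc47 differed by -0.40 and -0.30 and Fyttd1 by -0.23 and -0.19, and without DV706 and DV707 by -0.38 and -0.26 in diabetic mice. In diabetic mice, only 2 of 4 Ccdc47 probe sets and 1 of 3 Coa8 probe sets had these signs. Crtac1, a secreted matrix protein, was higher in both at an unadjusted p under 0.05, by 1.33 (SE 0.56) and 1.65. Its change in diabetic mice was 0.77 without DV706 and DV707 and -0.16 without the neuron-poor arrays. Ccdc47, Fyttd1, Tmem205, Coa8, Crtac1, Trem2, Ptprb, Isl1, Calcb, Acta1, Vwf, Srpx and Ccl11 were chosen after their values were seen.

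The 5 genes with the smallest p for the difference between both effects included Ccl7, Lum and Ccl2. In control mice Ccl7 was at 10.06 to 10.50 on the CV and 8.79 to 9.91 on the CR arrays, a change of -1.05 against 0.90 in diabetic mice (difference 1.95, SE 0.40, limma adjusted p = 0.748). Lum was at 12.48 to 12.57 on the CV and 11.68 to 12.26 on the CR arrays, -0.54 against 0.58 (difference 1.12, SE 0.23, limma adjusted p = 0.748). Ccl2 had -1.07 against 0.85 (difference 1.92, SE 0.49). Ccl11, the eosinophil chemokine eotaxin, and Srpx, a secreted matrix protein, had opposite signs too, with -0.51 and -0.72 in control mice against 0.46 and 0.63. In diabetic mice these were 0.18 and 0.47 without DV706 and DV707, and 0.31 and 0.24 without the neuron-poor arrays. Ptprb had 0.64 in control mice against -0.62 in diabetic mice.

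By list, endothelial genes had a median of 0.27 in control mice against -0.27 in diabetic mice, with 8 of 25 at an unadjusted p under 0.05 for the difference, against 4.77% of all genes. For macrophage markers the medians were -0.25 and 0.26, with 5 of 25. Chemokine and cytokine genes had -0.21 and 0.35, with 6 of 35, and fibroblast and matrix genes -0.12 and 0.00, with 7 of 47. PPAR target genes had 0.53 and 0.11, with 3 of 45, and the median adipocyte change was 1.40 and 0.97. Without DV706 and DV707, 296 genes had an unadjusted limma p under 0.05 for the difference.

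**Figure D5:**
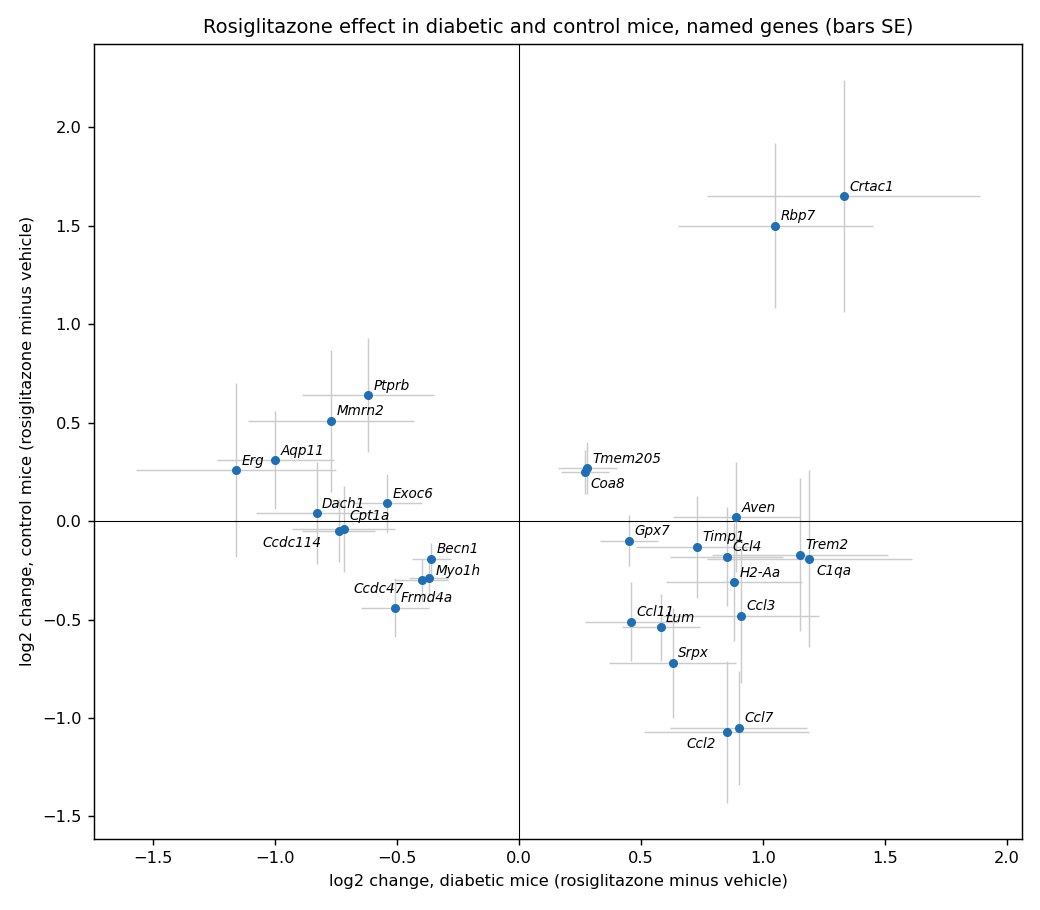
Each point is a named gene, with its log2 change with rosiglitazone in diabetic mice (horizontal) and in control mice (vertical) and SE bars from limma. Rbp7 lies at 1.05 and 1.50, Becn1 and Myo1h lie below 0 on both axes, and Ccl7, Ccl2 and Lum lie above 0 in diabetic and below 0 in control mice.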

How the data were processed

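Sciatic nerve RNA of 19 DBA/2J mice was profiled on Affymetrix arrays, per the labels after NuGEN Ovation amplification. The deposited values are 1 linear intensity per probe set and array, made with RMA per the submitters' processing notes (version not given). Per the series design text each group had 5 mice and the authors excluded 1 control array, so p-values reflect variation among animals. Control probe sets (64 of 45101) and probe sets with several (932) or no (9160) gene symbols in the platform annotation were not used for genes. Intensities were put on the log2 scale. For each gene the most intense probe set was kept, and the 13460 genes above the 40th percentile (log2 intensity 5.54) were fitted in R 4.3.3 with limma 3.58.1 (lmFit with 4 group means, eBayes, Benjamini-Hochberg adjustment at 0.05).

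Differences are rosiglitazone minus vehicle. The number of arrays limits the precision. On simulated data for this comparison, 200 of 13460 genes were changed. An adjusted p under 0.05 recovered 19 of them at a log2 change of 0.5, 137 at 1 and 174 at 2. It also called 0, 9 and 8 unchanged genes at these changes. Whether such counts hold for genes whose spread differs between groups, such as Etfb, was not tested. Named genes are, by rule, the 10 highest and 10 lowest changes among genes without overlap, the 5 smallest p-values of the comparison and of the difference, up to 4 members of each list with the smallest p under 0.05, and 26 genes of lipid, myelin, stress and clock biology, some of which are not reported here. The text names those that a described group needs. The members and lists were chosen with earlier results of these data known. Lists with no account of their own in the text (perineurial, satellite glia, smooth muscle, mast cell, neutrophil, T and B cell, red blood cell, polyol, immediate early and cell cycle genes) had medians between -0.40 and 0.26. Alternatives were the filter, probe set rule, samples fitted, normalization, offset, weights, prior, a Gapdh covariate and arrays left out.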

Additional observations from a re-analysis of the deposited data

Results flagged for a closer look

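In each diabetic group of 5, a value was picked out where its gap to the nearest other array exceeded 0.71 of the group's range (Dixon's test). Chance does this in about 1 of 20 groups, and 23 of 174 groups of named genes and control pairs did. The genes are not independent, since several mark the same tissue.

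Array DR716 stood highest of its group for Pparg (10.63), Pdk4 (12.72) and Cd36 (11.99), genes of fat and lipid use, and for the Gapdh (1.75) and beta-actin (1.70) 3' minus 5' differences. It stood lowest for Isl1 (3.83) and Calcb (4.87) of sensory neurons, Sema7a (8.45), Echs1 (10.37), Etfb (12.81) and Pmp22 (13.95). Array DV709 stood lowest for the fat genes Adipoq (5.48) and Fabp4 (9.64) and highest for Myo1h (12.14).

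Array DR719 stood highest for H2-Aa (13.64) and Psmb9 (11.28), genes of antigen presentation, and for Myo1h (11.80). Array DR720 stood lowest for Agpat3 (10.21), Ccdc47 (11.59) and Srpx (8.99). Single values were Mbp on DV706 (14.44, highest), Rsad2 on DV708 (9.53, lowest) and Dbp on DV710 (11.97, lowest).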

How the results depend on the processing

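No gene passed an adjusted p of 0.05 by limma in the diabetic comparison with all arrays or under any alternative run. The count at an unadjusted p under 0.05, 1305, was 341 with the Gapdh difference as covariate, 439 with diabetic arrays only, 258 without DV706 and DV707, 511 without DV706, DV707 and DR716, and 569 without the neuron-poor arrays. Over single arrays left out it ran from 447 to 2999. The count of genes without overlap, 85, was 207, 593 and 1295 under the last 3 of these settings, which leave fewer arrays to overlap. It was 137 with no filter, 49 with the mean of a gene's probe sets and between 106 and 419 over single arrays left out. In control mice the count at an unadjusted p under 0.05, 381, was 639 with the covariate, 2074 with array weights and 1198 without the neuron-poor arrays, and ran from 204 to 511. For the difference between both effects, 642, it was 317, 1290, 1164 with no filter and 296 without DV706 and DV707, and ran from 332 to 1847. The Gapdh 3' minus 5' difference between groups, -1.11, was 0.04 without DV706 and DV707 (exact permutation p = 0.929) and from -1.42 to -0.59 over single arrays left out. The cause of these shifts was not tested beyond the construction named. No paired analysis was possible because the array numbers in the titles differ between all groups. The settings that leave out DV706, DV707 and DR716 together, or single control arrays, were chosen after seeing the data.

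Many of the named genes were chosen for their values on these arrays, and the alternatives share most of the arrays. A kept direction is therefore no independent support. Of 1861 gene values under alternatives, over 85 named genes, 1832 kept their direction and 29 turned. Without the neuron-poor arrays these were Fabp3 (-0.25), Lpl (-0.13), Adipoq (-0.03), Apoe (-0.02), Cat (0.05), C1qa (-0.04), Pmp22 (0.03), Ngfr (-0.36), Isl1 (-0.55), Calcb (-0.22) and Crtac1 (-0.16). With the mean of probe sets they were Ndufs4 (-0.09), Mbp (0.05), Dbp (0.02) and Coa8 (-0.19). With the covariate they were Pparg (0.73), Ngfr (-0.14) and Calcb (-0.09), and without DV706 and DV707 Pparg (0.56) and Ngfr (-0.11). Over single arrays left out, Pparg ran from -0.78 to 0.33 (0.16 without DR718), Lpl from -0.28 without DV709 to 0.74, and Hmox1 from -0.29 to 0.58.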
